A study of Homo sapiens with 6 samples.

Results

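The large histone gene cluster on the short arm of human chromosome 6 was examined in H82 and H524, 2 established small cell lung cancer lines that were cultured untreated. Its members were selected on position alone from the peaks the authors had called: every listed region of hg19 chromosome 6 whose midpoint lay from 26 to 29.7 Mb, with repeated entries of an interval taken as 1 region. This gave 495 of the 61250 regions in the series. Of these, 255 carried H3K4me3 in H82, 207 carried H3K4me3 in H524, 12 were NeuroD1 regions of H82 and 21 were NeuroD1 regions of H524. Since the members are themselves peak calls, and the stretch was picked with the density of its calls known, their number and density are given as a description.

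The series holds 6 libraries, which are 1 NeuroD1, 1 H3K4me3 and 1 input library without antibody for each line. Per the labels, NeuroD1 was recovered with an antibody from Cell Signaling (#4373) and H3K4me3 with one from Abcam (#ab8580). With 1 library per antibody and line there is no spread between replicates, so no test between the lines was possible and no p-value is given. Read numbers per library are not in the files, and the depth behind the lists is therefore unknown. The 95% intervals below are exact Clopper-Pearson intervals for shares, Newcombe intervals for differences of shares and exact conditional intervals for ratios of counts, and they cover counting error only. Neighbouring regions are not independent, so the true uncertainty is larger.

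Histone genes of this cluster encode the histones that are made in S phase to package newly copied DNA. They lie in dense groups, and their transcripts are short and not polyadenylated. Between them lie many tRNA genes, which RNA polymerase III transcribes, and a set of zinc finger genes. H3K4me3, trimethylation of lysine on histone H3, is found at the promoters of active genes and also near active tRNA genes. NeuroD1 belongs to the basic helix-loop-helix family, drives neuronal differentiation by binding to E-box motifs, and defines a molecular subtype of small cell lung cancer.

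In the RefSeq annotation of GRCh38.p14, which served here for names and neighbour order only, 53 protein-coding histone genes, 144 tRNA genes, 15 zinc finger genes, 6 butyrophilin genes and 16 olfactory receptor genes lie between TRIM38 and ZFP57. The histone genes form 3 runs with no tRNA gene inside. The first runs from H1-1 to H4C8 with 32 histone genes, the second from H2BC11 to H2AC12 with 5, and the third from H2BC13 to H2BC17 with 16. Between the first and second runs lie 47 tRNA genes with the 6 butyrophilin genes, between the second and the third 51 tRNA genes, and after the third 46 tRNA genes, 12 of the zinc finger genes and all 16 olfactory receptor genes. The files are in hg19, so no region could be assigned to a gene. The regions were instead grouped by hg19 position into histone part 1 (26 to 26.3 Mb), histone part 2 (27.1 to 27.3 Mb) and histone part 3 (27.75 to 27.9 Mb), and the stretches between and after them.

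Promoters of the histone genes between TRIM38 and ZFP57 are illustrated by 1 gene of each histone family, the first of its family in gene order with a RefSeq promoter at hand. No H3K4me3 region was assigned to any of them. The lines give the 150 bases before the annotated start on the gene's own strand, GRCh38.p14, with the TATA motif TATAAA and the CCAAT box (CCAAT, or ATTGG on the other strand) in capitals.
H1-1: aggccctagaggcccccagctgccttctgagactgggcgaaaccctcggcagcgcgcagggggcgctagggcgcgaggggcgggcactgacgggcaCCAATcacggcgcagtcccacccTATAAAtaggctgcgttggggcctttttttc
H2AC4: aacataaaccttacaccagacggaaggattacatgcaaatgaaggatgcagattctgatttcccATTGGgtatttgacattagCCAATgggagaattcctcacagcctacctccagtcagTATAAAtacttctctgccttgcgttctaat
H2BC3: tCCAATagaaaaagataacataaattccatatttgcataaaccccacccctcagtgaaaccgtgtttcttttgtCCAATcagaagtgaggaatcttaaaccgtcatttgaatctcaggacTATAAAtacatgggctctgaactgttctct
H3C1: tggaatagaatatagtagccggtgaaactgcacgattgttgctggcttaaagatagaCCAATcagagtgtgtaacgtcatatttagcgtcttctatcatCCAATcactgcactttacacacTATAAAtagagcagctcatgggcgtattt
H4C2: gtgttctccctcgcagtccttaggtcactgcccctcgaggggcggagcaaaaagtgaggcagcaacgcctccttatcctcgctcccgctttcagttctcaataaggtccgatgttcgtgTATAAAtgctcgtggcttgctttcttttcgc
In all 5, TATAAA begins 29 to 31 bases before the start, and the H4C2 stretch alone holds no CCAAT box.

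RefSeq promoters were at hand for 48 of the 53 histone genes. In the 250 bases before the start, searched on both strands, TATAAA occurred in 31 of 48 (64.6%), against 11.1% of all 27305 promoters. CCAAT occurred in 41 of 48 (85.4%), against 33.0% of all promoters. It was present in every H1, H2A, H2B and H3 promoter searched (6, 10, 14 and 8) and in 3 of 10 H4 promoters. The E-box CAGATG occurred in 8 of 48 histone promoters (16.7%, against 12.2% of all), and the E-box CAGCTG in 10 of 48 (20.8%, against 13.8%). In 9 pairs of histone genes, the genes were read in opposite directions from a shared upstream stretch, so their promoters overlap and are not independent entries. Of these pairs, 8 were of an H2A with an H2B gene. The remaining pair was H3C4 with H2BC7, and H2BC7 was also paired with H2AC7. Both pairs shared 222 bases, so the H3C4 and H2AC7 promoters are not independent entries either. A match is a description of the letters and not a bound site.

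H3K4me3 regions were packed far more densely in the cluster than on the rest of the chromosome in both lines. H82 had 68.9 regions per Mb in the cluster and 6.02 per Mb on the rest of chromosome 6, an 11.4-fold difference. H524 had 55.9 and 6.0 per Mb, a 9.32-fold difference. The next stretch of the same length, from 29.7 to 33.4 Mb, held 31.6 per Mb in H82 and 33.8 per Mb in H524. The 3.7 Mb of the cluster thus held 20.2% of all H3K4me3 regions of chromosome 6 in H82 (18.1 to 22.6) and 17.1% in H524 (15.0 to 19.4). They made up 1.40% of the whole H82 list (1.23 to 1.58) and 1.11% of the H524 list (0.967 to 1.27).

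H82 had more H3K4me3 regions in the cluster than H524, whereas the counts on the rest of the chromosome were nearly equal. The ratio of H524 to H82 was 0.812 in the cluster (0.672 to 0.979), from 207 and 255 regions. On the rest of chromosome 6 it was 0.997 (0.913 to 1.09), from 1002 and 1005 regions. In covered length the gap was wider: the regions of H82 covered 191.9 kb of the cluster and those of H524 130.8 kb, a ratio of H82 to H524 of 1.47. The same ratio was 1.38 in the neighbouring stretch and 1.16 over the whole lists. Of the 261.1 kb covered in either line, 61.7 kb (23.6%) was covered in both, 130.2 kb (49.9%) in H82 alone and 69.1 kb (26.5%) in H524 alone. Over the whole lists 27.5% was covered in both. The copy number of the short arm of chromosome 6 in each line, and the mappability of the near-identical histone and tRNA genes, were not tested.

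**Figure D1:**
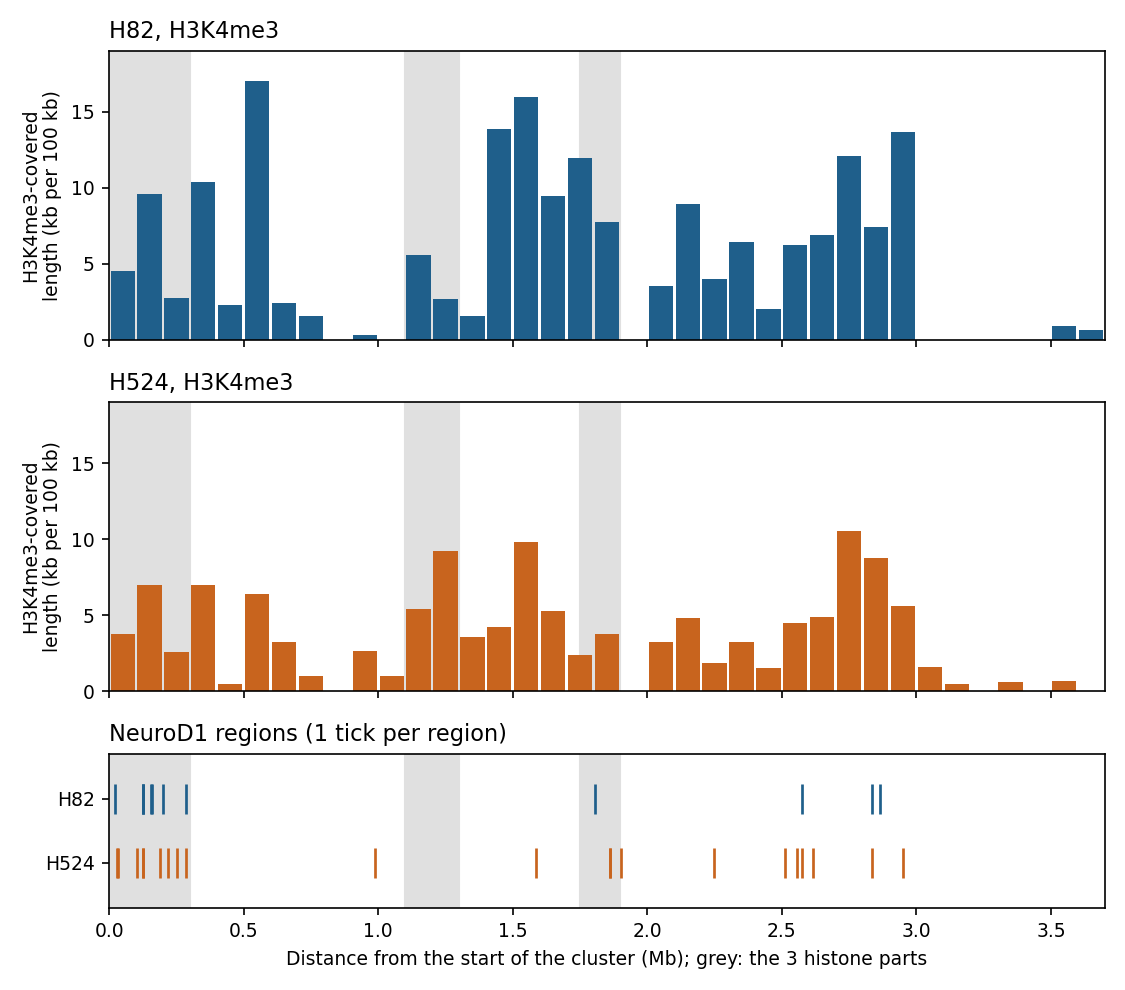
H3K4me3-covered length in kb per bin of 100 kb for H82 (top) and H524 (middle) against distance from the start of the cluster in Mb, with 1 tick per NeuroD1 region of each line (bottom); grey bands mark the 3 histone parts. H82 bars are higher in most bins, H524 is higher in the later bin of histone part 2 (9.22 against 2.66 kb), and the H82 list is empty for 611.6 kb near the end, where H524 has a few short regions.

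The mark was unevenly spread along the cluster, and both lists peaked in the same place. In bins of 100 kb, both lines had most regions at 28.7 to 28.8 Mb, within the stretch after the last histone part, with 24 in H82 and 22 in H524. In H82 no other bin of the whole list held as many. In H524, 5 bins reached 22, this one included, and the fullest held 27. Of these 24 and 22 regions, 7 and 8 overlapped a region of the other line by at least 1 bp, against whole-list shares of 52.4% and 52.9%. Several of the H524 regions without overlap lay under 1 kb from an H82 region, the nearest 0.017 kb away. Bins with 10 or more regions made up 13 of the 37 bins of the cluster in H82 (35.1%) and 5 of 37 in H524 (13.5%). Over all bins with a region such bins made up 0.832% and 0.758%.

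The end of the window was nearly bare. H82 had no H3K4me3 region from chr6:28985021-29596652, a gap of 611.6 kb. The longest gap of H524, 223.1 kb at chr6:29125199-29348281, fell inside it. Other long gaps of H82 were 200.3 kb at chr6:26925033-27125306 and 169.8 kb at chr6:27877337-28047163. Those of H524 were 176.3 kb at chr6:27871451-28047754 and 171.0 kb at chr6:26753853-26924835. The median gap between neighbours was 3.37 kb for H82 and 8.30 kb for H524. In 28 of the 37 bins (75.7%) both lines had a region.

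Regions of the cluster were less often shared between lines than those of the rest of chromosome 6 in both lines, and less often than the rest of the list in H82. In H82, 103 of 255 regions overlapped an H524 region by at least 1 bp (40.4%, 34.3 to 46.7), against a background of 52.4% over the whole list. The difference from the rest of the list was −12.1 percentage points (−18.0 to −5.98), from the rest of chromosome 6 it was −15.1 points (−21.7 to −8.27), and from the neighbouring stretch it was −9.18 points (−19.8 to 1.62). In H524, 105 of 207 regions overlapped an H82 region (50.7%, 43.7 to 57.7), against a background of 52.9%. The difference from the rest of the list was −2.24 points (−9.04 to 4.53), from the rest of chromosome 6 it was −7.86 points (−15.3 to −0.453), and from the neighbouring stretch −3.68 points (−14.5 to 7.35). The difference between the lines in these values was not tested.

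In width and score the regions stood close to or somewhat below their lists. A median width of 514 bp was found for H82 (whole list 563 bp) and of 493 bp for H524 (whole list 526 bp). The authors' score was used only for ranks and for score thresholds. The percentile of a region is its rank from the lowest score, as a percent of its list, with tied regions given their mean rank. The median percentile of the members was 44.7 in H82 (whole list 48.5) and 40.7 in H524 (whole list 50.1). The share above the median score in H82 differed from the rest of the list by −5.64 points (−11.6 to 0.542), an interval that includes 0. The share at or above the median score in H524 differed by −9.09 points (−15.6 to −2.25). Regions tied at the median score stood at percentile 48.5 in H82, where they were left out, and at 50.1 in H524, where they were counted. The H82 difference with the tied regions included was not computed. In H524 the neighbouring stretch was as low, with 40.8% at or above the median score against 41.1% in the cluster, and a median width of 470 bp. In the highest-scoring 10% of the list stood 19 of 255 regions in H82 (7.45%) and 11 of 207 in H524 (5.31%), differences from the rest of the list of −2.59 points (−5.25 to 1.33) and −4.74 points (−7.10 to −0.764). Regions with several summits made up 21.2% of the members in H82 (whole list 22.4%) and 13.5% in H524 (whole list 19.7%).

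Where the same position was marked in both lines, the H82 region was usually the wider. In 75 cases 1 region of each line overlapped the other and no further region. The H82 regions of these pairs had a median width of 937 bp, the H524 regions one of 579 bp, and the median ratio was 1.31. The H82 region was wider in 53 of 75 pairs (70.7%, 59.0 to 80.6), against 56.7% of the 7201 such pairs in the rest of the lists (55.6 to 57.9). Histone part 2 went the other way, with the H82 region wider in 1 of 6 pairs, while in histone part 3 it was wider in 5 of 5.

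**Figure D2:**
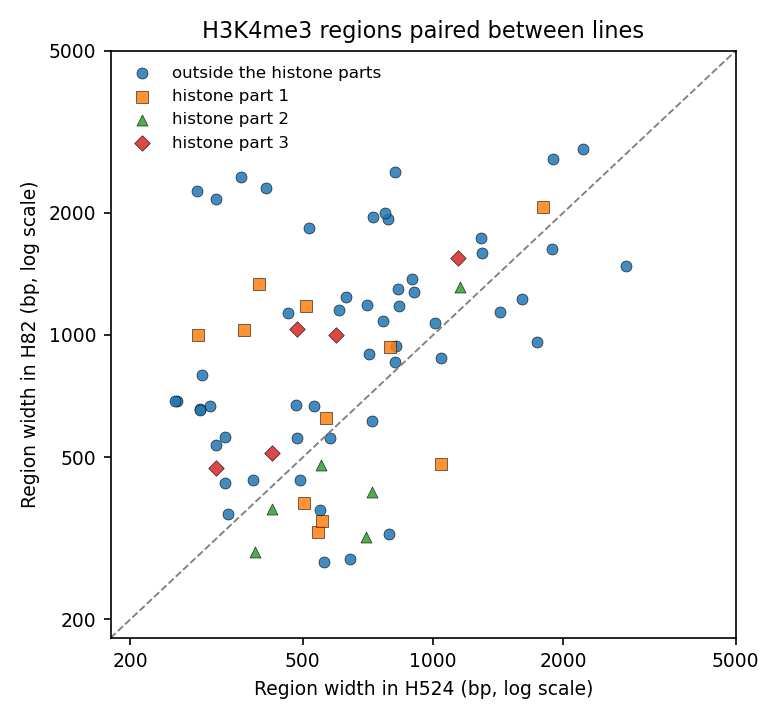
Width of the H82 region (vertical, bp, log scale) against the width of the H524 region (horizontal, bp, log scale) for the 75 pairs of H3K4me3 regions that overlap only each other; the dashed line marks equal widths. Of the points, 53 lie above the line, among them all 5 of histone part 3, while 5 of the 6 of histone part 2 lie below it.

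Histone part 1, the stretch with the most histone genes by neighbour order, had similar numbers of H3K4me3 regions in both lines. H82 had 23 regions over 16.7 kb and H524 had 21 regions over 13.3 kb, a ratio of H524 to H82 of 0.913 (0.481 to 1.73). In H82, 15 of the 23 were shared (65.2%, 42.7 to 83.6), and in H524, 13 of the 21 (61.9%, 38.4 to 81.9). The H82 share was the highest among the stretches of the cluster, but both intervals include the background. The median percentile was 57.5 in H82 and 52.3 in H524.

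The leading region of H82 in part 1 was chr6:26124433-26126501, 2.07 kb wide with 3 summits and at percentile 93.8. H524 had a region of 1.8 kb with 3 summits at the same place, chr6:26124491-26126287, at percentile 84.6, so this domain was nearly the same in position and shape. The other leading regions of H82 were chr6:26103599-26103947 (percentile 83.3), chr6:26196658-26197828 (80.7), chr6:26159756-26160381 (79.2) and chr6:26158451-26159384 (77.3), and the first of these was the highest-scoring of H82 alone. The remaining region of H82 alone above the median of its list was chr6:26120869-26121136 (percentile 60.8).

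In H524 the highest-scoring region of part 1 had no counterpart in H82: chr6:26224766-26225156, 0.391 kb wide at percentile 87.2. It was followed by chr6:26031933-26032298 (percentile 85.9), chr6:26197728-26199368 (80.2) and chr6:26123518-26124058 (79.3), all shared. Other regions of H524 alone above the median of its list were chr6:26188544-26189225 and chr6:26216435-26216729, both at percentile 71.3, and chr6:26205688-26206175 at 53.2. Both of those at percentile 71.3 lay under NeuroD1 regions of H524.

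Histone part 2 was the only histone part where H524 had the larger count and the larger covered length. H524 had 24 regions over 14.6 kb and H82 had 19 regions over 8.21 kb, a ratio of counts of 1.26 (0.663 to 2.44), whose interval includes equal numbers. The ratio rose to 1.89 (17 against 9 regions) with a score of at least 2 and to 2.0 (6 against 3) with regions below the list median left out. Of the covered length in this part, 59.3% was H524 alone, 27.5% H82 alone and 13.3% both. Few regions were shared, 6 of the 19 H82 regions (31.6%, 12.6 to 56.5) and 6 of the 24 H524 regions (25.0%, 9.77 to 46.7). The H82 interval includes the background of 52.4%, and the H524 interval lies below the background of 52.9%. The regions scored low in both lists, with a median percentile of 14.1 in H82 and 32.0 in H524, and none reached the top 10%.

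The leading region of H524 in part 2 was chr6:27219297-27219683 at percentile 88.2, and it was shared. Next came chr6:27145261-27146411 at percentile 77.3, whose H82 counterpart chr6:27145149-27146463 stood at 48.5. The regions chr6:27255566-27256649 (percentile 71.3), chr6:27181858-27182199 (62.2) and chr6:27247386-27248708 (58.8) were of H524 alone. In H82 the leading region was chr6:27182396-27182895 at percentile 75.6, found in H82 alone but 0.197 kb from the H524 region at percentile 62.2, so the lists placed the mark side by side there. The shared regions chr6:27125307-27125679 and chr6:27205117-27205435 of H82 stood at percentiles 56.5 and 40.3, and chr6:27154248-27154507, in H82 alone, at 38.9.

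Histone part 3 showed the widest gap between lines in the other direction. H82 had 20 regions over 16.8 kb and H524 had 8 over 4.90 kb, a ratio of H524 to H82 of 0.400 (0.152 to 0.948). Of the covered length, 72.5% was H82 alone and 5.33% H524 alone, and 7 of the 8 H524 regions overlapped H82 (87.5%, 47.3 to 99.7). In H82, 6 of the 20 regions overlapped H524 (30.0%, 11.9 to 54.3). Both intervals include the background, 52.9% in H524 and 52.4% in H82. Of the length covered in H524, 80.6% was also covered in H82, whereas 23.4% of the length covered in H82 was also covered in H524.

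The strongest regions of part 3 stood at 2 places. At the first, H524 had chr6:27862483-27863416 at percentile 97.1 and chr6:27861215-27861708 at 95.3, the highest and the second highest of that line in all histone parts. H82 had there 1 region of 2.02 kb with 5 summits, chr6:27861315-27863337, at percentile 78.6. At the second, H82 had chr6:27870527-27871527 at percentile 95.8, and H524 had chr6:27870853-27871450 at 70.6. The order of the lines thus differed between places less than 10 kb apart, with the higher percentile in H524 at the first and in H82 at the second.

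Earlier in part 3 the lines shared chr6:27759196-27760741 of H82 (percentile 81.6) with chr6:27759469-27760611 of H524 (percentile 82.1). Then followed regions of H82 alone, of which chr6:27775990-27778524, 2.54 kb wide with 3 summits, reached percentile 89.9. The others at or above the median were chr6:27774474-27775647 (54.6), chr6:27793040-27794114 (79.2) and chr6:27799476-27800123 (48.5, the median score itself). The single region of H524 alone in part 3 was chr6:27860383-27860887 at percentile 75.9.

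By neighbour order, 47 and 51 tRNA genes lie between the runs of histone genes and 46 after them, but none could be placed by hg19 position. Between the histone parts, H82 was again ahead. From 27.3 to 27.75 Mb it had 61 regions over 43.6 kb and H524 had 38 over 24.1 kb, a ratio of 0.623 (0.404 to 0.949). This stretch had the highest density of H82 in the cluster, with 135.6 regions per Mb against 84.4 per Mb in H524. Of the H524 regions 63.2% were shared (46.0 to 78.2, background 52.9%), and of the H82 regions 37.7% (25.6 to 51.0, background 52.4%). From 26.3 to 27.1 Mb, H82 had 34 regions over 33.9 kb and H524 had 28 over 21.7 kb. After part 3 the numbers were 98 over 72.6 kb and 88 over 52.3 kb. The ratios there, 0.824 (0.481 to 1.40) and 0.898 (0.666 to 1.21), have intervals that include equal numbers.

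**Figure D3:**
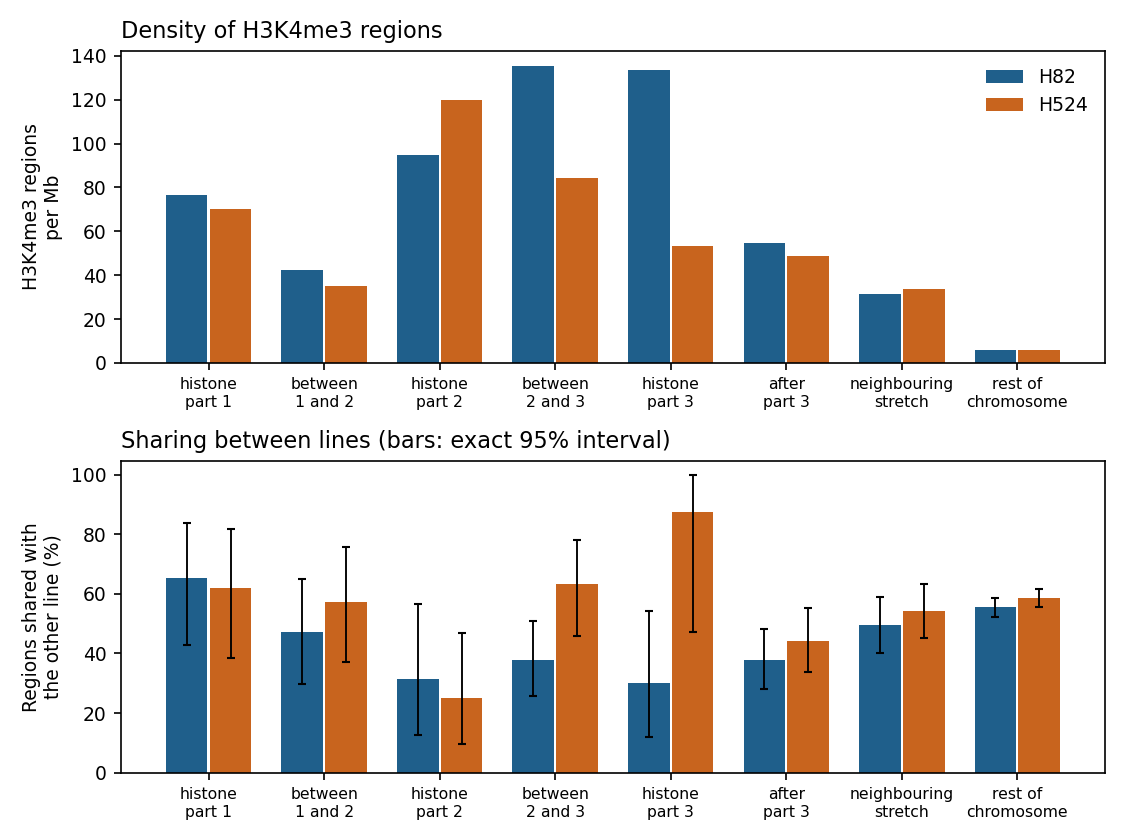
Number of H3K4me3 regions per Mb (top) and percent of regions shared with the other line with exact 95% intervals (bottom) in each stretch of the cluster, in the neighbouring stretch and on the rest of chromosome 6, for H82 (blue) and H524 (orange). The density of H524 exceeds that of H82 in histone part 2 and the neighbouring stretch, and in histone part 3 87.5% of the H524 regions but 30.0% of the H82 regions are shared. The intervals of both shares in part 3 include the whole-list share of their line (52.9% in H524, 52.4% in H82).

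The highest-scoring regions of the cluster in H82 lay outside the histone parts. The first was chr6:28303527-28304597, 1.07 kb wide, which ranked 79 of 18208 in its list. It was followed by chr6:26551921-26555717 (rank 165), which at 3.80 kb with 5 summits was also the widest of all members, chr6:28109066-28111774 (rank 217), chr6:26533301-26534542 (rank 322) and chr6:28863029-28865450 (rank 399). All 5 were shared with H524. In H524 the leading regions outside the histone parts ranked lower: chr6:28948633-28950850 was at rank 819 of 18595, chr6:27342404-27343034 at 915, chr6:27655112-27655887 and chr6:28911570-28912272 both at 1176, and chr6:26658598-26659885 at 1336. Only the region at rank 915 was of H524 alone.

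Broad regions lay outside the histone parts too. After the 3.80 kb region, the widest of H82 were chr6:28907456-28911016 (3.56 kb), chr6:26521458-26524498 (3.04 kb, in H82 alone), chr6:28948519-28951391 (2.87 kb) and chr6:28109066-28111774 (2.71 kb). The widest of H524 were chr6:28889871-28892652 (2.78 kb), chr6:26330790-26333115 (2.33 kb), chr6:27635073-27637355 (2.28 kb), chr6:28948633-28950850 (2.22 kb) and chr6:28109127-28111017 (1.89 kb), all shared. The places of the last region named for H82 and of the 2.87 kb region appear in both sets.

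The strongest regions of 1 line alone outside the histone parts were mostly of moderate rank. In H82 they were chr6:28193203-28193943 (percentile 91.7), the 3.04 kb region named above (89.2), chr6:26365436-26366448 (84.5), chr6:28589111-28589474 (83.3) and chr6:26550879-26551334 (81.6). In H524, after the region at rank 915, they were chr6:28717968-28718396 (89.8), chr6:28779492-28780108 (88.9), chr6:27064173-27065176 (80.7) and chr6:27598629-27599153 (75.9). The first and second of these belong to the densest bin of both lines.

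NeuroD1 had few regions in the cluster, but it was not absent, and in H82 histone part 1 brought its density above that of the rest of the chromosome. H82 had 12 regions, 0.311% of its NeuroD1 list (0.161 to 0.543), and H524 had 21, 0.102% of its list (0.0631 to 0.156). Per Mb this was 3.24 in H82 against 1.35 on the rest of chromosome 6, a ratio of 2.40, and 5.68 in H524 against 7.17, a ratio of 0.792. In H82, histone part 1 held 8 of the 12 regions, 26.7 per Mb, while the cluster outside the histone parts held 0.984 per Mb, below the rest of the chromosome. In H524 those values were 30.0 and 3.28 per Mb. The neighbouring stretch held 5.68 and 9.19 per Mb. The density in the cluster was thus 0.571 times that of the neighbouring stretch in H82 and 0.618 times in H524. NeuroD1 was also low relative to the number of H3K4me3 regions.

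The count of NeuroD1 regions in H524 was 1.75 times that in H82 (0.822 to 3.90), far below the ratio of 5.34 over the whole lists. This ratio depended on the length of the lists. When the H524 list was limited to its 3854 highest-scoring regions, the length of the H82 list, 1 of the 21 remained in the cluster against 12 of H82. No NeuroD1 region of the cluster stood in the top 10% of its list, 0 of 12 in H82 and 0 of 21 in H524. The differences from the rest of each list were −10.0 points (−11.0 to 14.2) and −10.1 points (−10.5 to 5.38), and both intervals include 0.

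Among H3K4me3 regions, overlap with NeuroD1 of the same line was less frequent in the cluster than elsewhere. It was seen at 7 of 255 regions in H82 (2.75%, 1.11 to 5.57), against a background of 6.34%, a difference from the rest of the list of −3.65 points (−5.11 to −0.816). In H524 it was seen at 15 of 207 (7.25%, 4.11 to 11.7), against a background of 18.0%, a difference of −10.9 points (−13.8 to −6.51). The shares moved with the overlap rule, and so did the backgrounds. With 50% of the region covered they were 0.392% in H82 (whole list 1.67%) and 3.38% in H524 (whole list 6.27%), and counting regions within 1 kb they were 5.10% (whole list 10.7%) and 9.66% (whole list 27.9%). In the 3 histone parts together it was seen at 5 of 62 regions in H82 (8.06%) and 9 of 53 in H524 (17.0%). Outside them it was seen at 2 of 193 (1.04%) and 6 of 154 (3.90%). The histone parts exceeded the remainder of the cluster by 7.03 points in H82 (1.74 to 16.5) and 13.1 points in H524 (4.17 to 25.5). In H82 all of this came from histone part 1, with 5 of 23 regions (21.7%, 7.46 to 43.7), since parts 2 and 3 had 0 of 19 and 0 of 20. The difference of part 1 from the rest of the list was 15.3 points in H82 (3.26 to 35.5). In H524 part 1 had 6 of 21 (28.6%, 11.3 to 52.2), a difference of 10.4 points (−4.36 to 31.8), and part 2 had 0 of 24.

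Seen from NeuroD1, most of its regions in the cluster lay on H3K4me3. In H82, 9 of 12 overlapped H3K4me3 of the same line (75.0%, 42.8 to 94.5), against a background of 29.4%. In H524, 14 of 21 did so (66.7%, 43.0 to 85.4), against a background of 16.0%. The differences from the rest of each list were 45.8 points (17.5 to 61.9) and 50.7 points (29.4 to 66.8). The neighbouring stretch, also dense in H3K4me3, had 57.1% and 55.9%, and the differences from it, 17.9 points (−15.8 to 44.0) and 10.8 points (−15.4 to 33.8), have intervals that include 0. Counting the mark of either line, 11 of 12 and 18 of 21 lay on H3K4me3. The whole-list share under this wider rule was not computed, and the backgrounds above do not apply to it.

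Histone part 1 held 9 of the 21 NeuroD1 regions of H524, beside the 8 of H82. Histone part 2 held none in either line. The stretches from 26.3 to 27.1 Mb and from 27.3 to 27.75 Mb held 0 in H82 and 1 each in H524, part 3 held 1 and 2, and the stretch after it held 3 and 8. Between lines, 5 of the 12 H82 regions overlapped NeuroD1 of H524 (41.7%, 15.2 to 72.3), against a background of 53.6%. Of the H524 regions 5 of 21 overlapped NeuroD1 of H82 (23.8%, 8.22 to 47.2), against a background of 9.98%.

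**Figure D4:**
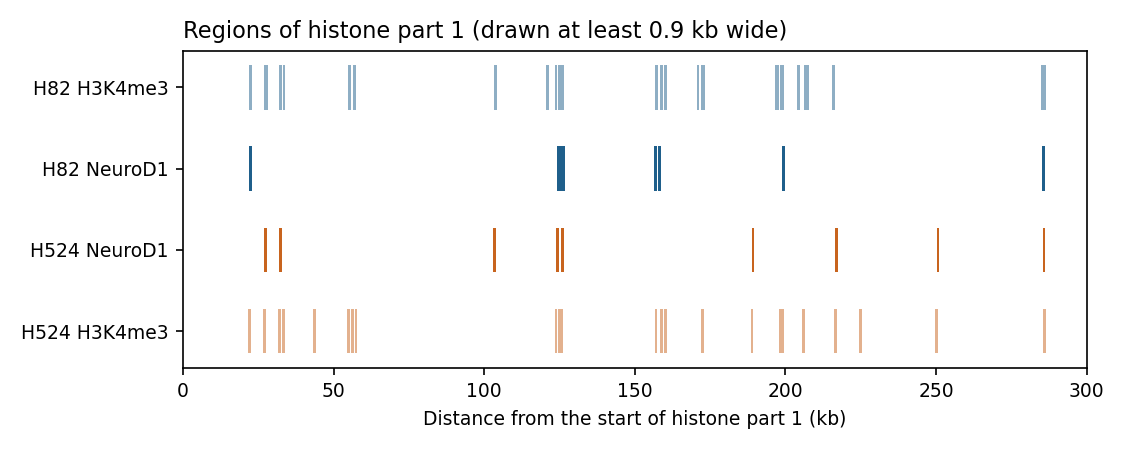
Positions of H3K4me3 regions (pale) and NeuroD1 regions (dark) of H82 (blue) and H524 (orange) along histone part 1, as distance from its start in kb; regions under 0.9 kb are drawn 0.9 kb wide. The NeuroD1 regions of both lines coincide near 125 and 286 kb, at H3K4me3 regions of both lines.

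In part 1, NeuroD1 of both lines met at the leading H3K4me3 domain. H82 had chr6:26124228-26124872 (percentile 38.9), chr6:26125157-26125453 (13.1) and chr6:26126148-26126424 (15.2) there, and H524 had chr6:26123935-26124767 (16.3) and chr6:26125777-26126315 (18.6). All 5 overlapped H3K4me3 of both lines, and all were in the lower part of their lists. The second place where the lines met in part 1 was chr6:26285464-26285950 of H82 (percentile 71.9) and chr6:26285547-26286111 of H524 (43.2), also on H3K4me3 of both lines.

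The other NeuroD1 regions of H82 in part 1 lay on H3K4me3 or at its edge. chr6:26022182-26022480 (percentile 15.2) overlapped H3K4me3 of H82 and ended 0.018 kb from that of H524. chr6:26158072-26158457 (64.5) overlapped that of H82 and lay 0.039 kb from that of H524, and chr6:26199068-26199443 (61.1) overlapped both. chr6:26156610-26156972 (67.8) overlapped H3K4me3 of H524 and lay 0.114 kb from that of H82. None of these 4 overlapped NeuroD1 of H524.

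The highest-ranked NeuroD1 region of H524 in part 1 was chr6:26216553-26217474 (percentile 80.0), on an H3K4me3 region of H524 alone. chr6:26188854-26189508 (54.4) was also on H3K4me3 of H524 alone, and chr6:26031979-26032671 (41.7) was on that of both lines. chr6:26027317-26027662 (72.2) lay on H3K4me3 of H82 and 0.024 kb beside that of H524. chr6:26103091-26103640 (54.4) overlapped the leading H82-only region of this part while the nearest H3K4me3 of H524 was 19.9 kb away. chr6:26250521-26250790 (16.3) overlapped no H3K4me3 and lay 0.194 kb from that of H524.

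In part 3, the 2 NeuroD1 regions of H524 stood on its leading H3K4me3 regions. They were chr6:27860779-27862191, 1.41 kb wide at percentile 82.2 and the highest of that line in the cluster, and chr6:27862820-27863418 at 65.7. In H524, 3 of the 8 H3K4me3 regions of part 3 overlapped NeuroD1 (37.5%, 8.52 to 75.5), an interval that includes the background of 18.0%. H82 had an H3K4me3 region there but no NeuroD1 region. Its single NeuroD1 region of part 3, chr6:27806358-27806635 (percentile 36.2), lay 54.1 kb away, on H3K4me3 of H524 and 0.154 kb from that of H82.

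Outside the histone parts, the lines shared NeuroD1 at 2 places. The first, chr6:28834089-28834939 in H82, was the highest of that line in the cluster (percentile 87.4), and H524 had chr6:28834106-28835035 there (62.2), with 2 summits. It overlapped H3K4me3 of neither line, the nearest lying 1.99 kb from the H82 region in H82 and 1.71 kb from the H524 region in H524. The second was chr6:28573991-28574627 of H82 (79.8), on H3K4me3 of both lines, with chr6:28574251-28574592 of H524 (41.4), which lay 0.100 kb from the mark of its own line. The remaining region of H82, chr6:28863131-28863549 (56.6), lay on the H3K4me3 region that ranked 399.

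The remaining 8 NeuroD1 regions of H524 were of H524 alone. Those on H3K4me3 of H524 were chr6:26987769-26988043 (percentile 50.8), chr6:27585234-27585567 (0.461, near the end of the list), chr6:28249263-28249528 (43.2), chr6:28510569-28510914 (58.9), chr6:28554847-28555184 (78.2) and chr6:28949311-28949853 (26.3). The first of these was on H3K4me3 of H524 alone and the other 5 were on that of both lines. chr6:28616291-28617102 (76.7) lay on H3K4me3 of H82 and 8.18 kb from that of H524. chr6:27901938-27902461 (50.8) lay 30.5 kb from H3K4me3 of H524, the farthest of the NeuroD1 members from the mark of their own line.

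At the edges of the window the nearest H3K4me3 regions of H82 just outside were chr6:25992898-25993720 (percentile 66.9) and chr6:29716231-29716673 (6.42), and those just inside were chr6:26021843-26022840 (55.6) and chr6:29622398-29622672 (48.5). In H524 the nearest outside were 720.4 kb before and 327.7 kb after the window. For NeuroD1, chr6:25992621-25992944 of H82 (78.6) and chr6:25999616-25999925 of H524 (64.5) lay just before the window, the latter with its midpoint 0.230 kb outside.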

How the data were processed

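NeuroD1 and H3K4me3 were profiled by ChIP-seq in H82 and H524, and the 4 deposited peak lists were used, 1 library each, grouped by the line and antibody in the labels. Per the submitters' processing notes, Trimmomatic 0.38, Bowtie 1.1.2, SAMtools 1.9, Picard 1.118, MACS2 2.1.1 and hg19 were used. Calling settings, and whether calling used the input libraries, are not given in the sources used, and input libraries were not analysed here. The authors' deposited score is taken to be a −log10 q-value, judged from the values, since each list begins just above 1.301, which is 0.05 on that scale. Entries with the same interval were merged under the highest score. Coordinates are 1-based.

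Overlap meant at least 1 bp, counted with Python 3.11.15, numpy 2.4.6, pandas 2.3.3 and scipy 1.17.1, and the overlap code was tested on simulated data. The members, stretches and lists were chosen with earlier results of these data known. Named regions are all NeuroD1 regions, in each histone part and line the top 5 H3K4me3 regions by score, those of 1 line alone at or above the median score there, and outside the histone parts the 5 highest-scoring, the 5 widest and the 5 highest-scoring of each line alone. The planned assignment to genes needed an hg19 annotation and was not made. Alternatives changed the score threshold, the overlap rule, the merging, the list length and the bin size.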

Additional observations from a re-analysis of the deposited data

Results flagged for a closer look

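The lines differed in opposite directions in 2 of the histone parts. The number of H3K4me3 regions in H524 divided by that in H82 was 1.26 in histone part 2 and 0.400 in histone part 3. The covered length went the same ways, with 59.3% of it in H524 alone in part 2 and 72.5% in H82 alone in part 3. The difference between the parts was not tested, since each line has 1 H3K4me3 library.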

How the results depend on the processing

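Of 56 alternative values for 13 results, 48 stayed within the 95% interval of the value reported (for the covered length, within 1.5 times of it). Some of these intervals are wide, such as 0.663 to 2.44 for the ratio in histone part 2, so a value could change much and still stay within. Requiring overlap of at least 50% of the region lowered the shared H3K4me3 regions to 23.1% in H82 and 38.2% in H524, and H3K4me3 regions with NeuroD1 to 0.392% and 3.38%. Counting regions within 1 kb raised the shared regions to 58.0% and 64.7%, and dropping regions below the list median in score raised those of H524 to 63.5%. Whole-list shares of shared regions under these altered settings were not computed, and the backgrounds given for the 1 bp rule do not apply to them. With NeuroD1 lists of equal length, the ratio of H524 to H82 fell from 1.75 to 0.0833 (1 region against 12), which turns its direction. The ratio in histone part 2 reached 2.0 without regions below the list median. The ratio for H3K4me3 in the cluster stayed between 0.702 and 0.897. No paired analysis was possible because each antibody and line has 1 library. No library could be left out for the same reason. Unknown read depth limits any statement on regions missing from a list.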
